A study of Homo sapiens with 6 samples.

Results

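The genes described here encode the kinases ATM and ATR, the partners that load and activate ATR, and the kinases CHEK1, CHEK2 and WEE1 that act at cell cycle checkpoints. They were 10 genes (ATM, ATR, ATRIP, TOPBP1, RAD17, RAD9A, CLSPN, CHEK1, CHEK2 and WEE1) of the 12180 genes listed for these libraries, chosen by name, and all 10 were listed and passed the filter on low values. The transcript table listed 38 of its 33090 transcripts under these names. All 6 libraries came from TE-1, a line established from a human esophageal squamous cell carcinoma (ESCC). The 3 FGL1-OE libraries came from cells given an FGL1 overexpression construct by lentivirus, and the 3 control libraries are named NC after the lentiviral plasmid with random nonsense sequence that the study used as its control, although the labels give the control genotype as WT. Cells that took up a construct were selected with puromycin into a stable line, so each group may be a single cell population, and nothing in the sources used here says that the 3 libraries of a group came from separate cultures. P-values therefore measure only the spread between these libraries, which may be technical.

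ATM responds to DNA double-strand breaks and ATR to single-stranded DNA at stalled replication forks. ATR reaches such DNA through its partner ATRIP and is switched on by TOPBP1, which is brought in by the ring-shaped clamp containing RAD9A that RAD17 loads. CLSPN, the adaptor claspin, then lets ATR phosphorylate CHEK1, while ATM acts mainly through CHEK2. CHEK1 and CHEK2 restrain the CDC25 phosphatases, and WEE1 phosphorylates the cyclin-dependent kinase CDK1 directly, so that both routes hold back entry into mitosis. The study concerns FGL1 and radiation in ESCC, and ionising radiation is a classic trigger of these kinases. The cells sequenced here carried no label of irradiation, so the comparison is of FGL1-OE against NC without a label of radiation. Differences in the history, transduction or selection of the cell populations go along with the construct and cannot be told apart from it.

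WEE1 was the only member whose FGL1-OE and NC libraries did not overlap, and it was lower in FGL1-OE. Of its listed transcripts, WEE1-202, with the longer coding part, was lower as well, without overlap, whereas WEE1-201 overlapped between the groups. The sequences are shown because they mark where these transcripts part. The coding part of WEE1-202 (ENST00000450114) has 646 codons and starts in exon 1, and that of WEE1-201 (ENST00000299613) has 432 codons and starts in exon 2 of the same reading frame, 214 codons further on, after which both are identical to the end. Coordinates of printed sequences are from GENCODE v29 on GRCh38, plus strand for WEE1, and capitals mark the start codons, that of WEE1-202 in the first line and that of WEE1-201 in the second.
WEE1-202 coding start, chr11:9573934-9573993: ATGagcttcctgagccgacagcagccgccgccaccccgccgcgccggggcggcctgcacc
WEE1-202 exon 2 around the WEE1-201 start, chr11:9575888-9576013: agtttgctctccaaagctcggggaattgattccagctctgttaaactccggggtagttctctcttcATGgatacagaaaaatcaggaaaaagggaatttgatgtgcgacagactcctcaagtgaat

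Levels are in FPKM, fragments scaled to transcript length and sequencing depth, so genes can be set side by side per length. The construct itself was evident. FGL1 stood at 0.0202, 0 and 0.106 FPKM in NC 1 to 3 and at 33.5, 39.3 and 39.9 FPKM in FGL1-OE 1 to 3. The listed gene FPKM summed to between 210904 and 226307 per library, and the number of reads behind a value is unknown, since low values showed no steps of whole reads. The FGL1-OE libraries resembled each other more (r between 0.981 and 0.986 over log2 values of all tested genes) than the NC libraries did (0.885 to 0.964). NC 1 and NC 2 stood apart along GC content, with a Spearman rho of -0.788 across 11786 genes, which are not independent replicates, between GC content and the log2 difference NC 2 minus NC 1. Of 8 squamous epithelial markers for the line, 6 were listed, KRT14 and SOX2 were not and TP63 was under the filter, and their sum was 274 to 313 FPKM in NC and 372 to 390 FPKM in FGL1-OE. The keratin KRT6A (136 ± 26.2 and 191 ± 6.98 FPKM in NC and FGL1-OE, SD, n = 3) and the cadherin CDH1 (43.0 ± 10.2 and 61.8 ± 0.162 FPKM) made up most of that difference, without overlap and with an unadjusted limma p under 0.05. Neither passed adjustment over all tested genes, of which 2.01% had such a p and 7.15% did not overlap. KRT5, KRT17 and EPCAM overlapped between the groups. Of 8 markers of fibroblasts, leukocytes and endothelium, 3 were listed, with sums of 7.93 to 10.4 FPKM in NC and 6.90 to 9.13 FPKM in FGL1-OE, and the part of either marker sum in any difference was not tested.

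By the deposited gene FPKM, CLSPN and TOPBP1 were the most abundant members and ATM the least. Mean levels over the 6 libraries were 13.8 FPKM for CLSPN, 13.2 for TOPBP1, 8.64 for CHEK2, 7.02 for RAD9A, 6.70 for RAD17, 4.27 for CHEK1, 3.90 for ATRIP, 2.43 for WEE1, 2.02 for ATR and 0.944 for ATM. CLSPN lay above 75.0% of all tested genes and ATM above 7.93%. The ranges of every pair of neighbours in this order overlapped across libraries. RAD17 lay above CHEK1, and ATR above ATM, in 6 of 6 libraries, while RAD9A lay above RAD17 in 3 and CHEK1 above ATRIP in 3, so neither of the latter pairs has a fixed order. CLSPN lay above TOPBP1 in 4 of 6. Gene values differ from their summed transcripts, and on the sums part of the order changed. CHEK2 then came first, with a mean of 18.7 FPKM against 17.8 for CLSPN and 17.1 for TOPBP1, and CHEK1 lay above RAD17 in 5 of 6 libraries, while ATM stayed last and below ATR in 6 of 6.

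**Figure D1:**
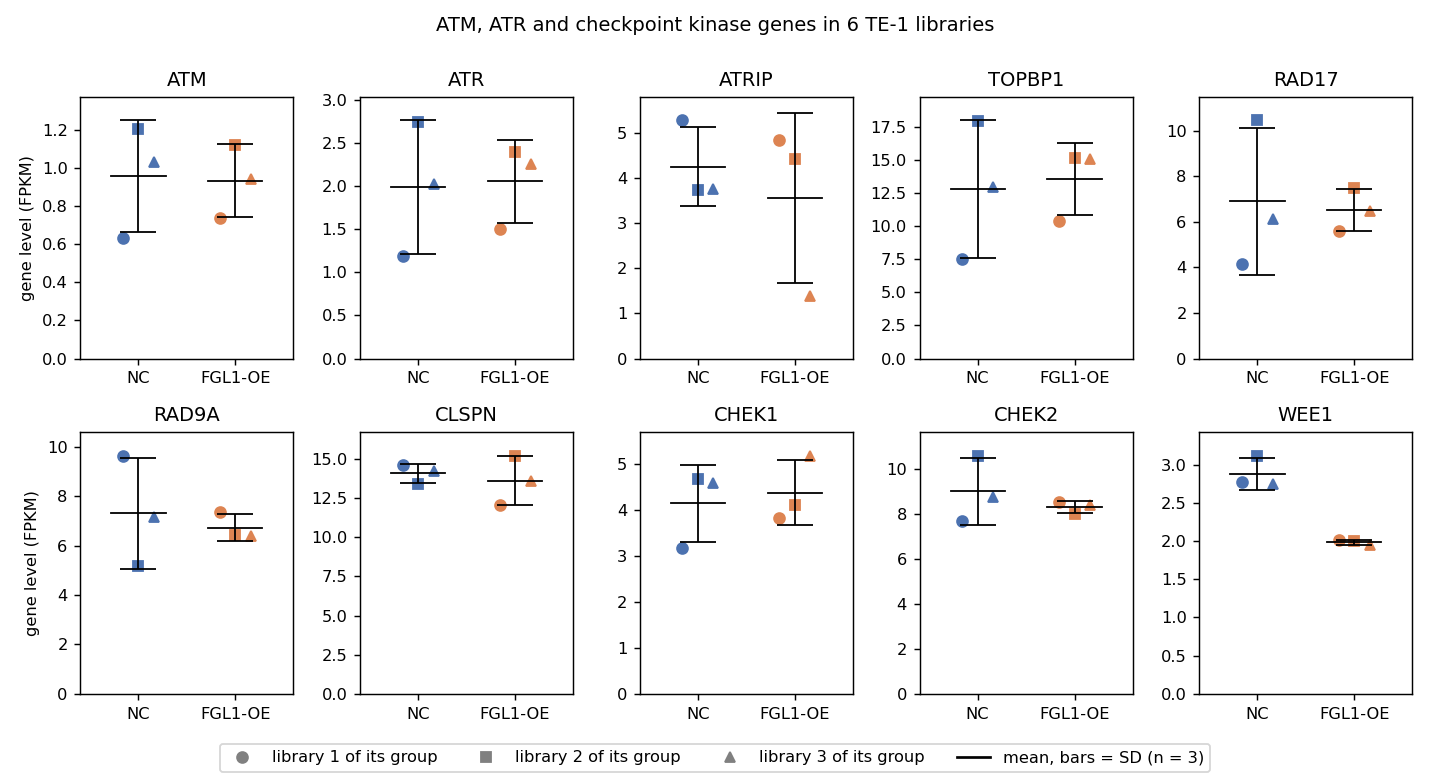
Gene level in FPKM (vertical axes, each starting at 0) of the 10 members in NC (blue) and FGL1-OE (orange), with a symbol per library, the group mean and the SD (n = 3). Only in the WEE1 panel do the groups separate, with NC between 2.74 and 3.11 FPKM and FGL1-OE between 1.95 and 2.01 FPKM.

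ATM, the kinase that answers double-strand breaks, stood at 0.631, 1.20 and 1.03 FPKM in NC 1 to 3 and at 0.735, 1.12 and 0.943 FPKM in FGL1-OE 1 to 3. The groups overlapped almost wholly, with the lowest and the highest library both in NC. The log2 fold change of FPKM + 1 was -0.01 (95% interval -0.41 to 0.39, exact permutation p = 1). At this level, near the filter, the scale understates a proportional change.

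ATR stood at 1.19, 2.74 and 2.02 FPKM in NC and at 1.50, 2.40 and 2.26 FPKM in FGL1-OE. The FGL1-OE libraries lay inside the NC range, and the log2 fold change was 0.05 (95% interval -0.49 to 0.59). ATM and ATR each had a single listed transcript, ATM-201 (log2 fold change 0.20, 95% interval -0.47 to 0.88) and ATR-201 (0.12, -0.65 to 0.89).

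ATRIP, the partner that brings ATR to single-stranded DNA, stood at 5.28, 3.73 and 3.75 FPKM in NC and at 4.84, 4.43 and 1.39 FPKM in FGL1-OE. FGL1-OE 3 was the lowest library, below all the others, and the other FGL1-OE libraries lay within the NC range. The log2 fold change was -0.30 (95% interval -1.10 to 0.50) with all libraries and 0.11 without FGL1-OE 3. A listed gene of uncharacterised name, AC134772.2, whose identifier is not in GENCODE v29, covers nearly all of the ATRIP locus (GRCh37 chr3:48488250-48509044, against chr3:48488114-48507115 for ATRIP) and was examined after the values were seen. It stood at 1.07, 0.539 and 1.07 FPKM in NC and at 1.65, 1.52 and 3.64 FPKM in FGL1-OE, so it was highest in the library where ATRIP was lowest. The groups did not overlap for AC134772.2 (log2 fold change 0.74, SE 0.26, unadjusted limma p = 0.0242, Benjamini-Hochberg adjusted p = 1.00, exact permutation p = 0.1), and without FGL1-OE 3 the log2 fold change was 0.46. Summed, ATRIP and AC134772.2 came to 5.15 ± 1.08 FPKM in NC and 5.82 ± 0.741 FPKM in FGL1-OE (SD, n = 3), and FGL1-OE 3, at 5.03 FPKM, lay inside the NC range of 4.27 to 6.35 FPKM. How reads were divided between these overlapping models was not tested, so the ATRIP level is uncertain.

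TOPBP1, the activator of ATR, stood at 7.52, 17.9 and 12.9 FPKM in NC and at 10.4, 15.2 and 15.1 FPKM in FGL1-OE. NC spanned a 2.38-fold range that contained every FGL1-OE library, and the log2 fold change was 0.13 (95% interval -0.57 to 0.84). Its transcript TOPBP1-201 made up 92.2% of the summed transcript FPKM in NC and 85.5% in FGL1-OE.

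RAD17, which loads the clamp, stood at 4.13, 10.4 and 6.12 FPKM in NC and at 5.60, 7.47 and 6.45 FPKM in FGL1-OE. This was the widest NC range among the members, 2.53-fold, and the log2 fold change was -0.0018 (95% interval -0.67 to 0.67). RAD17 has 2 named pseudogenes in GENCODE v29, and AK6 and TAF9 overlap it on the other strand. Library preparation was stranded, but how strand was used in quantification is not given in the sources used here.

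RAD9A, a subunit of the clamp, ran the opposite way between the control libraries. It stood at 9.63, 5.16 and 7.15 FPKM in NC and at 7.37, 6.42 and 6.41 FPKM in FGL1-OE, again with every FGL1-OE library inside the NC range (log2 fold change -0.07, 95% interval -0.57 to 0.43). In the table its locus overlaps 4 listed genes on the other strand, PPP1CA among them.

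CLSPN was the steadiest member in NC, at 14.6, 13.4 and 14.2 FPKM, against 12.1, 15.2 and 13.6 FPKM in FGL1-OE. The highest and the lowest library were both in FGL1-OE. On the log2 scale the difference was -0.05 (95% interval -0.40 to 0.30).

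CHEK1, the kinase downstream of ATR, stood at 3.18, 4.69 and 4.59 FPKM in NC and at 3.83, 4.12 and 5.19 FPKM in FGL1-OE. The groups overlapped, and the log2 fold change was 0.07 (95% interval -0.36 to 0.50). STT3A overlaps the CHEK1 locus on the same strand.

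CHEK2, the kinase downstream of ATM, stood at 7.66, 10.6 and 8.73 FPKM in NC and at 8.51, 8.01 and 8.38 FPKM in FGL1-OE. The FGL1-OE libraries fell within a 1.06-fold range inside that of NC, and the log2 fold change was -0.09 (95% interval -0.46 to 0.28). CHEK2 has 4 named pseudogenes, so reads from near-identical copies could enter its level.

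WEE1, which inhibits CDK1 and so delays mitosis, stood at 2.77, 3.11 and 2.74 FPKM in NC and at 2.01, 1.99 and 1.95 FPKM in FGL1-OE. Every FGL1-OE library lay below every NC library, with means of 2.88 ± 0.207 FPKM in NC and 1.98 ± 0.0345 FPKM in FGL1-OE (SD, n = 3). The mean differed by -31.0%, or by -0.38 as a log2 fold change of FPKM + 1 (SE 0.14, 95% interval -0.69 to -0.060). The unadjusted limma p was 0.0256, the Benjamini-Hochberg adjusted p was 1.00, and the exact two-sided permutation p was 0.1, the smallest that 3 against 3 libraries allow. The difference thus exceeded the spread between libraries of this gene but did not pass adjustment over 12017 genes, and the unadjusted p rose over 0.05 when NC 3, FGL1-OE 1, FGL1-OE 2 or FGL1-OE 3 was left out. Since RNA was taken from whole cultures, fewer cells with WEE1 mRNA and less of it per cell cannot be told apart. The gene lies at GRCh37 chr11:9595228-9615004 and no other listed gene overlaps it.

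Among the 10 members, 1 (WEE1) had an unadjusted p under 0.05 against 2.01% of all tested genes in both directions and 0.807% lower in FGL1-OE, and 0 had an adjusted p under 0.05 with limma against 0.00832%. Groups did not overlap for 1 of 10 members, against 7.15% of all tested genes in both directions and 3.06% lower in FGL1-OE, so 1 member is close to what that background gives. The log2 fold change was above 0 for 3 members and below 0 for 7, with a median of -0.03, whereas 53.7% of all genes were above 0, with a median of 0.02. The intervals of the other 9 members all included 0, and the widest, for ATRIP, reached from -1.10 to 0.50. Without NC 2, 6 members were above 0, the median was 0.05 and WEE1 remained the only member with an unadjusted p under 0.05 (adjusted p = 0.203, limma with Benjamini-Hochberg adjustment). Of all genes, 21.8% then had an unadjusted p under 0.05 and 0.0584% an adjusted p under 0.05, which no member had.

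**Figure D2:**
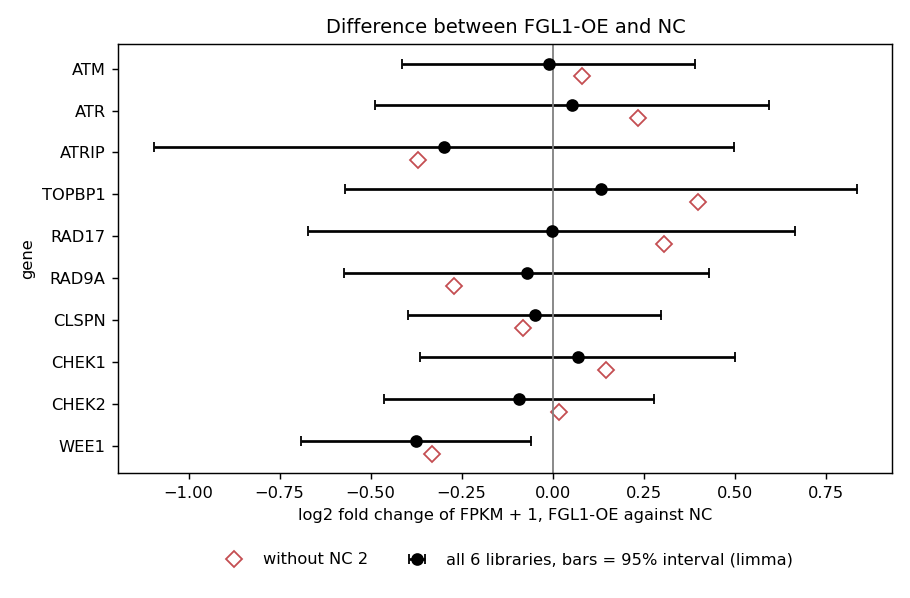
Log2 fold change of FPKM + 1, FGL1-OE against NC (horizontal axis), for each member gene with its 95% interval from limma over all 6 libraries (black), and the value without NC 2 (red diamonds). The WEE1 interval, -0.69 to -0.060, is the only interval here that leaves out 0, and RAD17 moves farthest without NC 2, from -0.0018 to 0.31.

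At the transcript level the groups separated in WEE1-202, which stood at 7.99, 8.07 and 7.19 FPKM in NC and at 4.84, 4.76 and 4.26 FPKM in FGL1-OE. The groups did not overlap, and the mean went from 7.75 ± 0.488 to 4.62 ± 0.314 FPKM (SD, n = 3). The log2 fold change was -0.64 (SE 0.21, 95% interval -1.15 to -0.12, unadjusted limma p = 0.0230, Benjamini-Hochberg adjusted p = 1.00, exact permutation p = 0.1). The unadjusted p was over 0.05 without any 1 of the FGL1-OE libraries. WEE1-201, which lacks the first 214 codons of WEE1-202 printed in part above, stood at 0.576, 1.08 and 0.880 FPKM in NC and at 1.01, 0.838 and 1.14 FPKM in FGL1-OE, with overlapping groups and a log2 fold change of 0.12 (95% interval -0.44 to 0.68). The share of WEE1-202 in the summed transcript FPKM was 93.3%, 88.2% and 89.1% in NC and 82.8%, 85.0% and 78.9% in FGL1-OE, which did not overlap (90.2% ± 2.71 against 82.2% ± 3.10, SD, n = 3, exact permutation p = 0.1). The deposited gene FPKM of WEE1 is not the sum of its transcripts, which was 2.92 times as large, yet the sums, 8.56, 9.15 and 8.07 FPKM in NC and 5.85, 5.60 and 5.40 FPKM in FGL1-OE, separated the groups too.

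**Figure D3:**
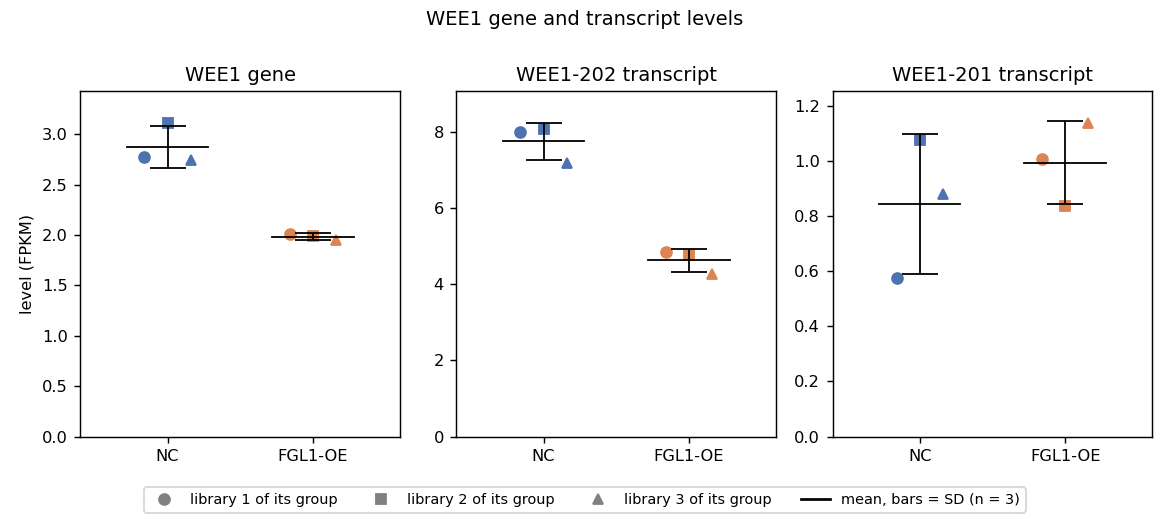
Level in FPKM (vertical axes, each with its own scale from 0) of the WEE1 gene and of its transcripts WEE1-202 and WEE1-201 in NC (blue) and FGL1-OE (orange), with a symbol per library, the mean and the SD (n = 3). The gene and WEE1-202 separate by group (7.19 to 8.07 FPKM in NC and 4.26 to 4.84 FPKM in FGL1-OE for WEE1-202), and WEE1-201 overlaps.

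Of the 38 member transcripts, 33 passed the filter and 5 did not. WEE1-202 was the only 1 with an unadjusted p under 0.05, against 3.53% of all tested transcripts in both directions and 1.48% lower in FGL1-OE, and 0 passed adjustment with limma, against 0.0165%. Log2 fold changes were above 0 for 17 and below 0 for 16, while 51.9% of all tested transcripts were above 0. Groups did not overlap for 4 of the 33 (ATRIP-201, RAD17-208, CHEK2-206 and WEE1-202), all lower in FGL1-OE, against 8.22% of all tested transcripts in both directions and 3.57% lower. Of 29 transcripts that held 10% or more of their gene's summed FPKM in either group, the shares of 5 did not overlap, namely both of WEE1, both of ATRIP and RAD17-208, against 8.15% of 24367 such transcripts of all genes. RAD17-208, at 0 in FGL1-OE, passed the filter and this limit only through its NC values. It is in both counts, so neither count gives support for a lower level of RAD17-208. The shares of both WEE1 transcripts add up to the whole, as do those of ATRIP, so each pair counts a single division. Transcripts of a gene share sequence, so a division between them rests on the reads that tell them apart. The number of such reads is unknown, and a value of 0 can be a failed estimate.

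ATRIP-201 carries an 81-base coding exon, exon 11, that ATRIP-202 lacks, and the sequence is shown because it is what tells their coding parts apart (764 codons in ATRIP-202 and 791 in ATRIP-201). It is on the plus strand and written without capitals, since all of it is specific to ATRIP-201.
ATRIP-201 exon 11, chr3:48464582-48464662: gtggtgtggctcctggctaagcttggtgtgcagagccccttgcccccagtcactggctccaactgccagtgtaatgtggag

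ATRIP-201 stood at 2.63, 2.999 and 1.61 FPKM in NC and at 1.57, 1.60 and 0.190 FPKM in FGL1-OE. All FGL1-OE libraries lay below all NC libraries, though FGL1-OE 2 and NC 3 nearly met, and the log2 fold change was -0.75 (95% interval -1.70 to 0.20, Benjamini-Hochberg adjusted p = 1.00 with limma). ATRIP-202 overlapped between groups at 4.28, 1.25 and 3.25 FPKM in NC and 4.06, 4.30 and 1.53 FPKM in FGL1-OE. The share of ATRIP-201 was 38.1%, 70.5% and 33.2% in NC and 27.9%, 27.1% and 11.1% in FGL1-OE (exact permutation p = 0.1). NC 2 stood far above the other NC libraries in this share, and the overlapping AC134772.2 bears on these transcripts as on the gene.

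RAD17-208 was listed at 0 in all 3 FGL1-OE libraries and at 0.0199, 6.44 and 0.812 FPKM in NC. The NC values differed so widely that NC 2 alone gave it a large share, 41.3% of the RAD17 transcripts there against 0.355% in NC 1. RAD17-208 (681 codons) starts in its own first coding exon, shown here because it is the coding part that sets it apart from RAD17-202 (670 codons), which starts with 9 other bases. It lies on the plus strand, with the start codon in capitals.
RAD17-208 first coding exon, chr5:69371516-69371557: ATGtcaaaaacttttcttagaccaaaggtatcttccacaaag

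CHEK2-206, the most abundant CHEK2 transcript, stood at 11.9, 10.6 and 15.6 FPKM in NC and at 8.63, 10.4 and 7.60 FPKM in FGL1-OE. NC 2 and FGL1-OE 2 were nearly level, and the log2 fold change was -0.47 (95% interval -1.09 to 0.16, Benjamini-Hochberg adjusted p = 1.00 with limma). Its share of the CHEK2 transcripts overlapped between groups, at 63.3% ± 17.0 in NC and 52.7% ± 10.1 in FGL1-OE (SD, n = 3).

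**Figure D4:**
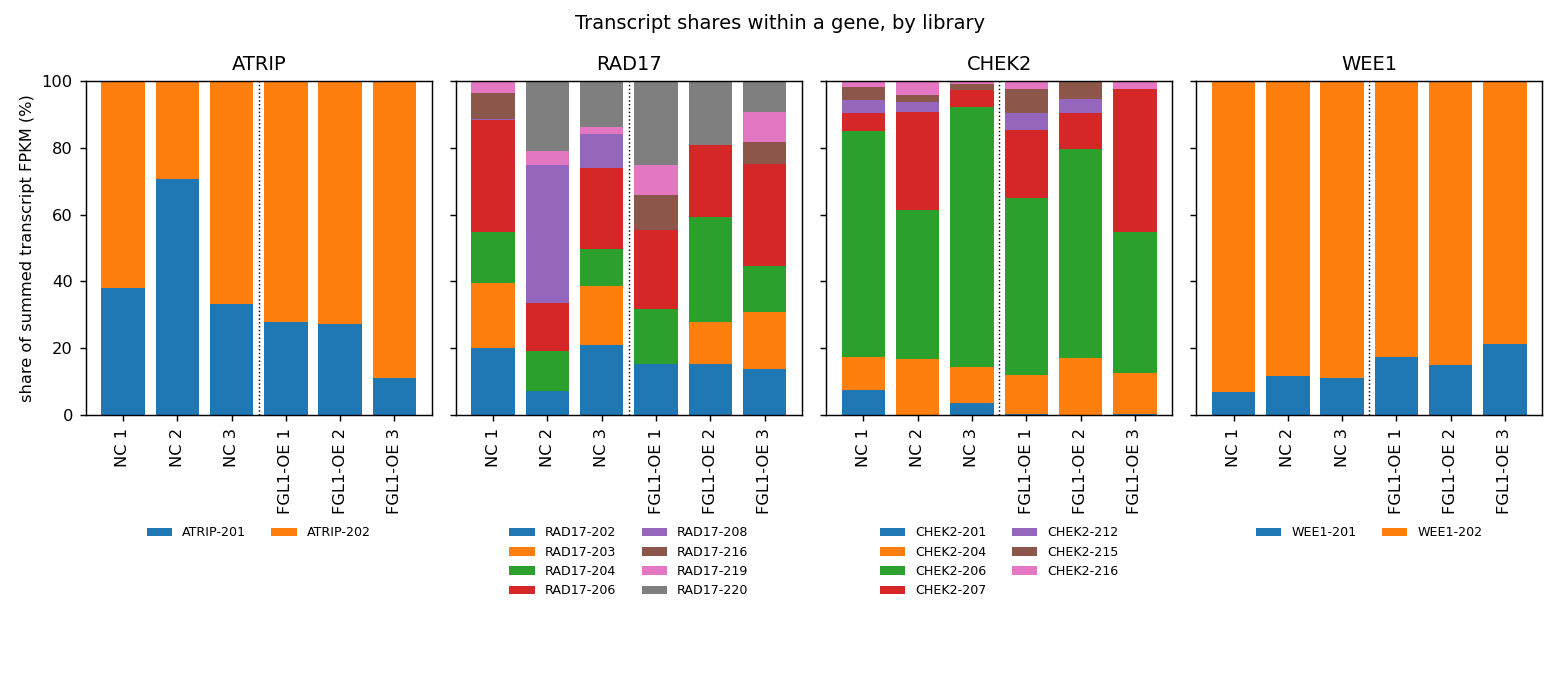
Share of each listed transcript in the summed transcript FPKM of its gene (vertical axis, percent) in each library, for the genes ATRIP, RAD17, CHEK2 and WEE1, with NC left and FGL1-OE right of the dotted line. WEE1-202 is at 88.2% or more in NC and at 85.0% or less in FGL1-OE, and RAD17-208, 41.3% in NC 2, is at 0 in FGL1-OE.

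The remaining transcripts overlapped between groups. CHEK1 had 8 listed transcripts, and the one with the largest mean share, CHEK1-206, stood at 2.24, 1.03 and 3.42 FPKM in NC and at 4.08, 2.79 and 9.02 FPKM in FGL1-OE (log2 fold change 0.91, 95% interval -0.23 to 2.04). RAD9A-201 ranged from 3.05 to 12.3 FPKM in NC and from 2.76 to 11.2 FPKM in FGL1-OE, a spread wider than any difference between the groups. CLSPN-202, the main CLSPN transcript, stood at 7.18, 14.1 and 13.9 FPKM in NC and at 12.2, 15.9 and 14.4 FPKM in FGL1-OE, with NC 1 apart from the rest.

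The spread among the controls followed base composition. The 5 members ATM, ATR, TOPBP1, RAD17 and CHEK2 were each lowest in NC 1 and highest in NC 2, as were 27% of all tested genes. RAD9A was highest in NC 1 and lowest in NC 2, as were 20.6% of all tested genes. The 4 members richest in A and T, RAD17 (37.5% GC), ATM (39.1%), ATR (40.0%) and TOPBP1 (41.3%), were higher in NC 2 than in NC 1 by 1.16, 0.43, 0.77 and 1.15 in log2(FPKM + 1), with ATM well under the others. The added 1 understates a proportional change most at the low level of ATM. As ratios of FPKM, NC 2 to NC 1 was 2.53, 1.91, 2.30 and 2.38 in the same order. ATRIP (55.5% GC) and RAD9A (60.6% GC) were lower in NC 2, at -0.41 and -0.79. WEE1, with 51.3% GC by its transcript WEE1-202, lay near the middle and differed by 0.13 between these controls. WEE1-201 has 40.8% GC. CLSPN departed from the trend, at -0.11 with 43.7% GC. The SD of log2 values was larger in NC than in FGL1-OE for 8 of 10 members and for 84.1% of all tested genes. The log2 fold change of FGL1-OE against NC also ran along GC content, less strongly (Spearman rho -0.327 across 11786 genes, which are not independent replicates). Its median was 0.084 in the lowest of 10 equal bins by GC content and -0.12 in the highest. The pathway lists were not matched for GC content. With the trend along GC content and length removed from each library, WEE1 was still lower in FGL1-OE, with a log2 fold change of -0.39 (adjusted p = 0.697, limma with Benjamini-Hochberg adjustment).

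**Figure D5:**
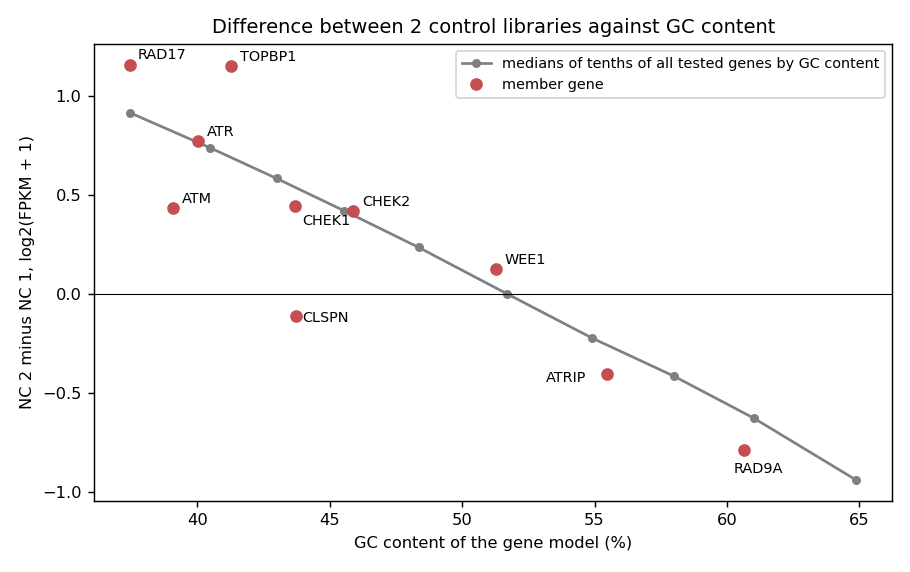
Difference between NC 2 and NC 1 in log2(FPKM + 1) (vertical axis) against GC content of the gene model in percent (horizontal axis), for the 10 members (red) and as medians over 10 equal bins of all tested genes by GC content (grey). The gene model here is the gene's listed transcript with the highest mean FPKM and a known sequence. Medians run from 0.91 in the bin lowest in GC to -0.94 in the highest, and RAD17 and RAD9A lie near the ends, at 1.16 and -0.79, with WEE1 at 0.13.

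The genes most like ATM, ATR and CHEK1 across the 6 libraries were named by Pearson correlation of log2(FPKM + 1), as a description over few points that share the control swing just given. For ATM they were EMSY (r = 0.996), NPIPB5 (0.993) and DDI2 (0.992), for ATR RAD21, HEATR5B and PIK3R4 (0.997 each), and for CHEK1 TBC1D2B (0.995), BTC (0.991) and N4BP2 (0.982).

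Promoters from RefSeq (GRCh38.p14, from 250 bases before to 50 after a start) matched 9 of the 10 members, all but WEE1. An E2F-like word (TTTNNCGC with C or G at each N), of the kind found before genes of the replication phase, was in the promoters of CLSPN and TOPBP1 on either strand and in 3.31% of 35116 promoters. CCAAT, the word bound by NF-Y, was in at least 1 promoter of 7 of the 9 and in 34.6% of all promoters. The cell cycle word known as CHR (TTNGAA with T or C at N) was in a promoter of ATM and of RAD17 and in 16.4% of all promoters. Several members have more than 1 promoter entry, so these shares are not matched for their number.

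The surrounding pathway gave no gene past the test. Of 57 genes in 5 lists, all tested, 0 had an unadjusted or an adjusted p under 0.05 with limma. Above 0 were 45 and below 0 were 12, whereas 53.7% of all tested genes were above 0, with a median of 0.02. Groups did not overlap for 6, all higher in FGL1-OE, against 7.15% of all tested genes in both directions. That share stands for 859 of 12017 genes, of which 368 were lower in FGL1-OE and the rest higher. Without NC 2, 12 were higher and 3 lower at an unadjusted p under 0.05, against 21.8% of all genes. The list medians moved with that library as well, without it to 0.25 for the ATM arm, 0.32 for the ATR arm, 0.15 for the CDC25 and CDK targets, 0.11 for the related kinases and 0.26 for the genes listed under checkpoint switch-off.

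Among 11 sensors and mediators of the ATM arm, 7 were above 0, with a median of 0.06. The ubiquitin ligase RNF8 went from 2.62 ± 0.298 to 3.47 ± 0.529 FPKM (log2 fold change 0.30, SE 0.16), and the ATM interactor ATMIN had a log2 fold change of 0.28. Among 13 genes of the ATR arm and clamp loading, 11 were above 0, with a median of 0.18. HUS1, which forms the clamp with RAD9A, stood at 2.64, 5.67 and 5.10 FPKM in NC and at 6.36, 5.81 and 5.85 FPKM in FGL1-OE (log2 fold change 0.40, SE 0.24), so the groups did not overlap. RHNO1, which links the clamp to TOPBP1, had the lowest value of the list (-0.47), with 18.5 FPKM in FGL1-OE 1 against 7.64 and 6.44 in the other FGL1-OE libraries.

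Among 12 CDC25 phosphatases, cyclin-dependent kinases and related targets, 11 were above 0, with a median of 0.11. CCNB1, the cyclin whose kinase CDK1 is inhibited by WEE1, stood at 37.2, 55.7 and 52.2 FPKM in NC and at 64.6, 59.6 and 63.6 FPKM in FGL1-OE. The CCNB1 groups did not overlap, with a log2 fold change of 0.39 (SE 0.19, exact permutation p = 0.1), and DBF4, the activator of the replication kinase CDC7, had a log2 fold change of 0.39 with overlapping groups. Among 9 kinases related to ATM and ATR and their chaperones, 6 were above 0, with a median of 0.08, and the largest values were 0.20 for TRRAP and -0.12 for TTI2. Among 12 phosphatases, ubiquitin ligase subunits and other genes listed under checkpoint switch-off, 10 were above 0, with a median of 0.12. That list includes the deubiquitinases USP7 and USP28, so not all of its genes switch the checkpoint off. CUL1, the scaffold of the ligase that degrades WEE1 and claspin, stood at 19.0, 36.2 and 34.5 FPKM in NC and at 37.03, 45.7 and 45.8 FPKM in FGL1-OE, without overlap (log2 fold change 0.55, SE 0.26, exact permutation p = 0.1), and the phosphatase subunit PPP2CA had a log2 fold change of 0.24 with overlapping groups. Several of these log2 fold changes rested on NC 1. Without it they were 0.13 for HUS1, 0.011 for ATMIN, 0.057 for DBF4, 0.21 for CCNB1, 0.071 for TRRAP, 0.26 for CUL1 and 0.051 for PPP2CA. Adjusted p-values with all libraries were 1.00 for all genes of these lists named here, by limma with Benjamini-Hochberg adjustment.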

How the data were processed

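RNA of 6 TE-1 libraries was enriched with oligo(dT) beads, prepared with a stranded kit and sequenced on an Illumina instrument. The authors deposited FPKM per gene and transcript. Per the submitters' processing notes, StringTie and GRCh37 were used, whereas versions and aligner are not given in the sources used here. Deposited columns of the authors' own comparison were not used.

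Genes (12017) and transcripts (30330) averaging 0.5 FPKM or more across libraries were compared by group alone with limma 3.58.1 in R 4.3.3, using log2 values after adding 1 to each FPKM and Benjamini-Hochberg adjustment over each table, and members also with an exact two-sided permutation test (Python 3.11.15). The code was tested on simulated data. Groups came from the labels. Named were all members, their transcripts with values, FGL1, pathway or marker list genes with an unadjusted p under 0.05 and otherwise the 2 largest log2 fold changes of each pathway list, and the 3 genes most correlated with ATM, ATR and CHEK1. Members and lists were chosen with earlier results of these data known. Coordinates of genes are on GRCh37. GENCODE v29 (GRCh38) held 37 of the 38 member transcripts, 35 with the same genomic span, and gave coding sequence, length and GC content. A gene took the length and GC content of its listed transcript with the highest mean FPKM and a known sequence. Alternatives were another pseudocount, other filters, scaling to a common sum, quantile normalization, a replicate block, an ordinary linear model, array weights, leaving out each library, summed transcripts and, added after seeing the data, removal of the GC and length trend. A sequence of CHEK2 is not reported here.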

Additional observations from a re-analysis of the deposited data

How the results depend on the processing

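WEE1 was lower in FGL1-OE under all 16 alternatives, with log2 fold changes of -0.53 to -0.33. Its limma p was under 0.05 in 12 and over it in 4, without NC 3 (0.0538) and without FGL1-OE 1, 2 or 3 (0.0674, 0.0826 and 0.0986), and the Benjamini-Hochberg adjusted p was under 0.05 with array weights (0.00201) and otherwise 0.203 or more. Array weights did not converge and called 5004 of 12017 genes, with 1 member, AC134772.2 and 8 named list genes past adjustment, and 34 of 57 list genes (51.9% of all genes) and 6 of 33 member transcripts (19.7% of all) at an unadjusted p under 0.05. The replicate numbers did not pair the libraries (deviation correlations 0.345, 0.282 and -0.0614), and with a replicate block WEE1 had a log2 fold change of -0.38 (limma p = 0.0455), 0 members passed adjustment and 1 list gene had an unadjusted p under 0.05 (2.48% of all genes). WEE1-202 was lower under 15 alternatives, at -0.73 to -0.56, with a limma p over 0.05 in 4, the block (0.0573) and without FGL1-OE 1, 2 or 3 (0.0551, 0.0624 and 0.0859), and Benjamini-Hochberg adjusted p-values of 0.110 or more. With the GC and length trend removed, 2 list genes (5.91% of all genes) and 2 member transcripts (4.23% of all transcripts) had an unadjusted p under 0.05. The log2 fold change of RAD9A was then 0.0018. With summed transcripts, 5 members were above 0, and ATM was at 0.20, RAD17 at 0.042 and RHNO1 at 0.65. In that setting 2 list genes had an unadjusted p under 0.05, a count without a matching share of all genes. RAD17 was at 0.0089 with a pseudocount of 0.1, 0.00072 with a common sum and 0.094 with array weights, which put TRRAP at -0.023 and ATRIP-202 at -0.087. A filter of 1 FPKM left ATM out.

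Leaving out each library in turn gave 1 (without NC 1) to 6 (without NC 2 or FGL1-OE 1) members above 0, 0 to 1 members, 0 to 15 (without NC 2) list genes and 0 to 2 (without NC 1) member transcripts with an unadjusted p under 0.05, and a median of -0.16 to 0.050. The member count was 0 without NC 3 or any FGL1-OE library. Without NC 2, 21.8% of all genes and 8.89% of all transcripts had an unadjusted p under 0.05. For the other libraries left out, no such share is given here, so those counts have no background. Log2 fold changes ranged from -0.14 to 0.081 for ATM, -0.15 to 0.23 for ATR, -0.53 to 0.11 for ATRIP, -0.18 to 0.40 for TOPBP1, -0.27 to 0.31 for RAD17, -0.27 to 0.12 for RAD9A, -0.13 to 0.029 for CLSPN, -0.075 to 0.15 for CHEK1, -0.19 to 0.018 for CHEK2, -0.22 to 0.49 for ATRIP-202, -0.16 to 0.42 for TOPBP1-201 and -0.11 to 0.34 for ATR-201. None of these passed adjustment, and the causes were not tested. The unknown depth and 3 libraries a group limit precision.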
